A study of Mus musculus with 12 samples.

Results

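Complement components and regulators were examined in mouse bone marrow mesenchymal stem cells (MSCs). The 9 genes were C3, C4b, C1ra, C1s1, Cfb, Serping1, Cd55, C3ar1 and Masp1, picked by symbol from 55401 genes in the expression table. MSCs of C57BL/6 mice, bought as a cell stock, were left untreated or received 5 ng/mL TGF-β1, which drives them toward myofibroblasts. The remaining groups received 5 ng/mL TGF-β1 plus medium in which myeloid-derived suppressor cells (MDSCs) had been cultured. These MDSCs were of either the monocytic (M-MDSC) or the granulocytic (G-MDSC) subset. Per the study's methods, bone marrow cells were induced with the cytokines GM-CSF and interleukin-6 for some days, and MDSCs were sorted. The groups are called TGF-β1/M-MDSC sup and TGF-β1/G-MDSC sup here. Each group had 3 poly(A) RNA libraries, and the libraries held 73977669 to 84565450 counts. No library from supernatant without TGF-β1, or from fresh medium handled like a supernatant, was analysed here, so the supernatants were compared with TGF-β1 alone.

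Complement is a chain of plasma proteins that marks cells for removal and can pierce their membranes. The classical pathway starts when C1q binds and its proteases C1r and C1s cut C4 and C2, the lectin pathway starts with sugar-binding proteins and MASP proteases, and the alternative pathway amplifies through C3 and factor B. All of them meet at C3. Soluble and membrane-bound regulators stop the chain on host cells, and receptors for the fragments pass the signal to cells. The liver makes most plasma complement, and fibroblasts, stromal cells and kidney tubule cells make components locally, often more of them when interferon or inflammatory cytokines are present.

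TGF-β1 lowered 6 of the 9 genes, and 5 of these 6 rose again with each supernatant. With M-MDSC supernatant it was 4 of the 6 when replicate 3, a library with hepatocyte transcripts, was left out. Hepatocyte transcripts were also in all 3 G-MDSC libraries, and kidney tubule transcripts were in all 6 supernatant libraries. In these, the supernatant and such transcripts cannot be told apart. With all 28622 genes that had a count in any library tested, C1ra, C1s1, C4b, C3, Cfb and Serping1 fell with TGF-β1 (edgeR quasi-likelihood test, Benjamini-Hochberg adjusted p under 0.05), where 7.8% of all genes fell. Against TGF-β1 alone, 6 of the 9 rose in TGF-β1/M-MDSC sup, where 1.56% of all genes rose, and 5 of the 9 rose in TGF-β1/G-MDSC sup, where 1.84% of all genes rose. The first count moved with single libraries: among 7 of these genes that passed a filter on low values, 6 rose with M-MDSC supernatant, but 3 without TGF-β1 replicate 2. Both supernatant comparisons share the 3 TGF-β1 libraries. The median log2 change of the 9 genes was -2.28 with TGF-β1, 1.41 in TGF-β1/M-MDSC sup and 1.63 in TGF-β1/G-MDSC sup over TGF-β1 alone, beside a median of 0 over all genes in each of these comparisons. The means with supernatant differed in how close they came to the untreated level. They were 17.6% to 25.7% of it for C1ra and C1s1, 39.9% to 64.3% for C4b and Serping1, and 78.2% to 187% for C3 and Cfb. The 78.2%, for C3 with M-MDSC supernatant, rested on replicate 3 and was 51.6% without it.

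**Figure D1:**
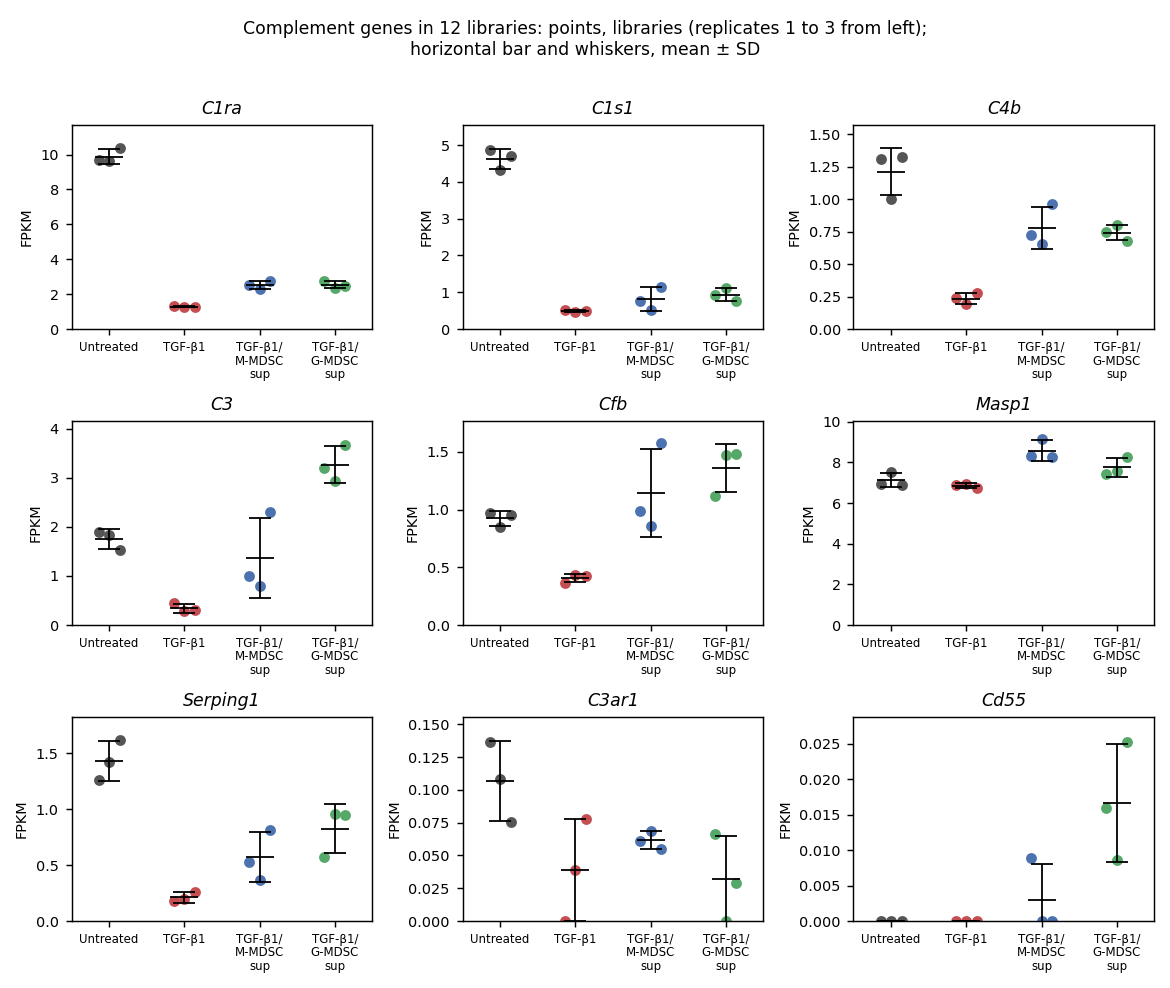
Level of each of the 9 genes (FPKM, linear axis from 0) in the 4 groups. Points are libraries, and the bar with whiskers is the mean ± SD of 3 libraries. C1ra, C1s1, C4b, C3, Cfb and Serping1 had all 3 TGF-β1 libraries below all 3 untreated libraries, as did 17.7% of all genes with a count, whereas the Masp1 libraries of these groups overlapped.

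The main test was run on 12016 genes with at least 1 FPKM (fragments scaled by exon length and by the mapped reads of the library) in at least 3 libraries, and 7 of the 9 genes passed. C1ra and Masp1 reached 1 FPKM in all 12 libraries, C3 in 8 and C1s1 in 5. C4b and Serping1 passed through the 3 untreated libraries alone, C1s1 would not have passed without them, and Cfb passed through 4 libraries that were all from supernatant groups. These 4 genes passed by their highest groups, so the counts over all 9 genes without this filter are the ones to read. Among the 7, TGF-β1 lowered 6 (17.9% of the 12016 genes fell), M-MDSC supernatant raised 6 (2.83% rose) and G-MDSC supernatant raised 5 (3.1% rose). The changes and adjusted p-values below are from this test for C1ra, C3 and Masp1, and from the test of all 28622 genes without the filter for C1s1, C4b, Cfb and Serping1, with the standard error (SE) on the log2 scale.

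Some libraries held transcripts of cells other than MSCs. The summed counts of 20 hepatocyte genes were 153 to 184 in the untreated libraries and 97 to 105 with TGF-β1, but 15933 to 17659 in the 3 TGF-β1/G-MDSC sup libraries. In TGF-β1/M-MDSC sup they were 226, 215 and 14518 in replicates 1, 2 and 3, where replicates 1 and 2 had counts for 8 and 10 of the 20 genes, against 2 to 4 in the libraries without supernatant. Alb, which encodes the liver's plasma albumin, had 0 counts in the 6 libraries without supernatant and in M-MDSC replicates 1 and 2, 6423 counts in replicate 3 and 7039 to 7827 counts in TGF-β1/G-MDSC sup. Counts of 9 kidney tubule genes were 27 to 34 in untreated, 95 to 145 in TGF-β1, 4774 to 5296 in TGF-β1/G-MDSC sup and 1561, 1538 and 7308 in TGF-β1/M-MDSC sup. Myeloid markers summed to 682 to 924, 669 to 805, 1104 to 1408 and 793 to 1196 counts in the same order of groups. Among them, Csf1r (985, 1608, 1870 and 1571 counts per group) and Cd68 (808, 506, 713 and 750) were already high without supernatant. Lyz2 had 42, 22, 672 and 517 counts, whereas Ly6g had 466, 19, 34 and 18. The other myeloid markers, at most 160 counts per group, had more with each supernatant than with TGF-β1 alone. All 9 MSC markers had counts in every library, whereas Kit, the gene of the progenitor marker CD117, had at most 10 counts and Pecam1, the gene of the endothelial marker CD31, had 40 to 120.

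Liver and kidney cells express complement genes, so it matters which of the 9 had counts without supernatant. C3, C4b, C1ra, C1s1, Cfb, Serping1 and Masp1 had counts in all 6 libraries without supernatant, from 37 for Serping1 in a TGF-β1 library to 6890 for Masp1 in an untreated one. C3ar1 had counts in 5 of these 6 libraries. Cd55 had 0 counts in all 6 and a few counts in 4 of the 6 supernatant libraries. In TGF-β1/G-MDSC sup, the supernatant and the hepatocyte transcripts came together in all 3 libraries and cannot be told apart. The changes of the 9 genes with M-MDSC supernatant over TGF-β1 are therefore also given without replicate 3, where the Alb count of the remaining libraries was 0. These libraries still held 1561 and 1538 kidney tubule counts, so the supernatant and the kidney transcripts came together in all 6 supernatant libraries and cannot be told apart. With no filter and without this library, 5 of the 9 genes still rose over TGF-β1, namely C1ra, C3, C4b, Cfb and Masp1, of which Masp1 had not fallen, where 1.24% of all genes rose.

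**Figure D2:**
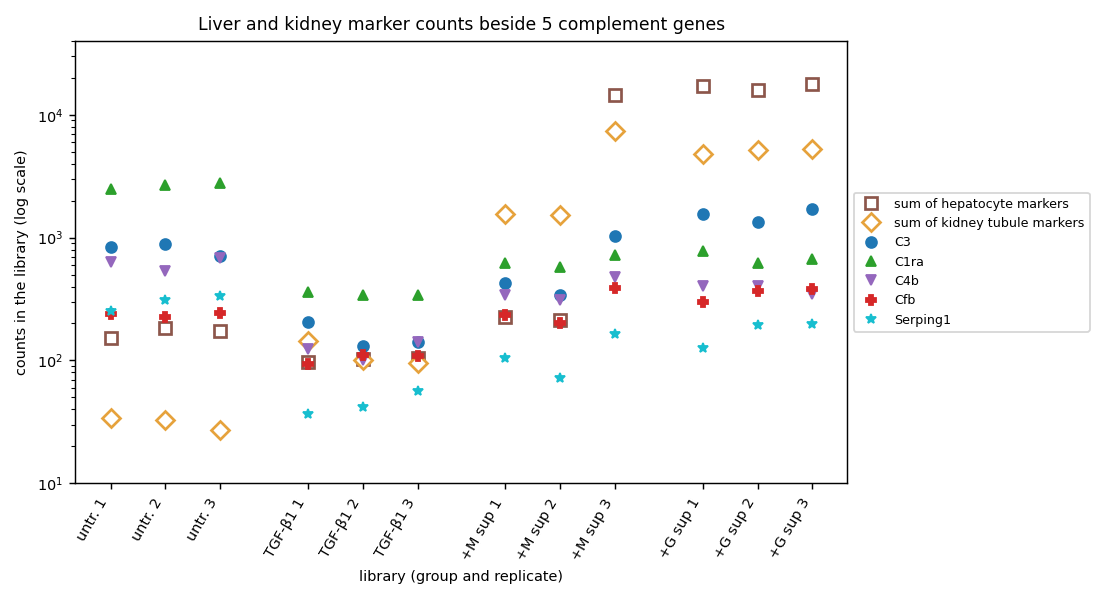
Counts in each of the 12 libraries on a log scale, with open squares for the sum of 20 hepatocyte genes, open diamonds for the sum of 9 kidney tubule genes and filled symbols for C3, C1ra, C4b, Cfb and Serping1. The hepatocyte sums of M-MDSC replicates 1 and 2, 226 and 215, lie above those of the libraries without supernatant (97 to 184), whereas replicate 3 (14518) lies with the G-MDSC libraries.

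The proteases of the C1 complex had the largest fitted falls among the 7 tested genes, together with Serping1. C1ra (ENSMUSG00000055172, chr6:124512405-124523443, plus strand, GRCm38) encodes C1r, the protease that activates C1s. Its level was 9.68, 9.61 and 10.4 FPKM in untreated MSCs, 1.33, 1.25 and 1.28 FPKM with TGF-β1, 2.52, 2.32 and 2.77 FPKM in TGF-β1/M-MDSC sup and 2.75, 2.38 and 2.48 FPKM in TGF-β1/G-MDSC sup. All untreated libraries were highest, all TGF-β1 libraries lowest, and the supernatant groups overlapped each other between them. C1ra fell by 2.88 on the log2 scale with TGF-β1 (SE 0.0881, adjusted p = 2.94e-09), which is 7.36-fold lower. It rose by 0.95 with M-MDSC supernatant (SE 0.0840, adjusted p = 4.61e-05) and by 0.95 with G-MDSC supernatant (SE 0.0839, adjusted p = 4.75e-05). Without M-MDSC replicate 3 the rise was 0.89 (adjusted p = 0.000209). Both supernatant means were 25.7% of the untreated mean, against 13.0% with TGF-β1 alone.

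C1ra was the only one of the genes whose promoter window held one of the 3 motifs searched, and the match is shown for that reason. RefSeq promoter windows of GRCm38.p6, from 250 bases before to 50 bases after a start, were given for 5 of the 9 genes, namely C1ra, C1s1, C3, C3ar1 and Cd55, and not for C4b, Cfb, Serping1 and Masp1. The letters searched on both strands were TTTC, any 2 bases and TTTC for the interferon-stimulated response element, TTCNNNGAA for the gamma-interferon activated site (GAS), and GGGA, any 2 bases and TTCC for NF-κB. The match shown overlaps neither of the others. They were present in 3.44%, 8.3% and 1.47% of 32851 promoter windows. The C1ra match, in capitals below, starts 32 bases after the RefSeq start at chr6:124512621, at chr6:124512653-124512661, and lies in exon 1 of transcript C1ra-201. The 30 bases shown are chr6:124512641-124512670, plus strand.
C1ra, GAS match in capitals: gcaaatgcttcaTTCCCTGAAacattcctc

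C1s1 (ENSMUSG00000038521, chr6:124530345-124542359, minus strand) encodes C1s, which cuts C4 and C2, and lies next to C1ra on chromosome 6. The 250 bases before its start are shown as the upstream region of the gene with the largest fitted fall of the 7 tested, with no capitals because none of the 3 motifs was found there (chr6:124542360-124542609, minus strand, GRCm38.p6).
C1s1, 250 bases before the start: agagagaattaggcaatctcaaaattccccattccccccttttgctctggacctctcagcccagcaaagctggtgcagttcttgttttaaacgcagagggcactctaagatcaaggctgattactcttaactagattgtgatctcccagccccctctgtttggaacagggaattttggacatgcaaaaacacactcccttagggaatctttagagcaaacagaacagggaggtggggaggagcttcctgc
C1s1 stood at 4.86, 4.33 and 4.71 FPKM in untreated MSCs and at 0.522, 0.467 and 0.485 FPKM with TGF-β1, with no overlap. It fell by 3.16 on the log2 scale (SE 0.25, adjusted p = 4.24e-06), 8.95-fold lower. The supernatant libraries had 0.777, 0.520 and 1.15 FPKM in TGF-β1/M-MDSC sup and 0.934, 1.11 and 0.773 FPKM in TGF-β1/G-MDSC sup. All G-MDSC libraries were above all TGF-β1 libraries, while M-MDSC replicate 2 lay at the level of the highest TGF-β1 library. Neither rise passed the test, with log2 differences of 0.71 (95% interval 0.19 to 1.24, adjusted p = 0.245) and 0.91 (0.38 to 1.43, adjusted p = 0.0879). Without M-MDSC replicate 3 the first was 0.39 (adjusted p = 0.619). With the filter, the first was 0.94 without M-MDSC replicate 2 and passed (adjusted p = 0.0227), and the second passed with DESeq2 (0.91, adjusted p = 0.00607) and with the groups compared fitted alone (0.91, adjusted p = 0.0447).

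C4b (ENSMUSG00000073418, chr17:34728380-34743882, minus strand) encodes C4, the protein that C1s cuts and that forms part of the C3 convertase. Its level was 1.31, 1.00 and 1.32 FPKM in untreated MSCs, 0.239, 0.191 and 0.275 FPKM with TGF-β1, 0.723, 0.653 and 0.961 FPKM in TGF-β1/M-MDSC sup and 0.750, 0.799 and 0.681 FPKM in TGF-β1/G-MDSC sup. TGF-β1 libraries were lowest without overlap, and every supernatant library lay below every untreated one. C4b fell by 2.29 with TGF-β1 on the log2 scale (SE 0.191, adjusted p = 6.48e-06). It rose by 1.71 with M-MDSC supernatant (SE 0.188, adjusted p = 0.000395), by 1.53 when replicate 3 was left out (adjusted p = 0.00122), and by 1.63 with G-MDSC supernatant (SE 0.188, adjusted p = 0.000589). Against untreated MSCs the log2 difference of C4b was -0.58 with M-MDSC supernatant, which did not pass (adjusted p = 0.0511), and -0.66 with G-MDSC supernatant, which passed (adjusted p = 0.0292). With the filter the first passed (adjusted p = 0.0247), but not without untreated replicate 1 or 3 or M-MDSC replicate 1 or 2 (highest adjusted p = 0.0904), and the second was lost without untreated replicate 3 (0.0522) or G-MDSC replicate 3 (0.0506).

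C1ra, C1s1, C4b and Cd55 have near copies in the mouse genome, and the counting of reads that fit both copies was not given in the sources used here. Of the 100-base stretches of the main transcript, 34.5% in C1ra also occur in C1rb, 16.5% of C4b in C4a, 7.9% of C1s1 in C1s2 and 5.5% of Cd55 in Cd55b. Of these copies, C1rb fell by 3.03 with TGF-β1 on the log2 scale (SE 0.216, adjusted p = 1.84e-06, no filter). Its log2 differences over TGF-β1 were 0.73 with M-MDSC (adjusted p = 0.140, no filter) and 0.87 with G-MDSC supernatant (adjusted p = 0.0550, no filter), the latter called with the filter alone (adjusted p = 0.0347). C1s2 had 193, 151 and 219 counts in untreated and 9, 46 and 15 counts in TGF-β1 libraries, a log2 change of -2.96 (SE 0.572, adjusted p = 0.0039, no filter). C4a had 127, 141 and 78 counts against 43, 41 and 24 counts, a log2 change of -1.63 (SE 0.350, adjusted p = 0.00766, no filter). Cd55b had 0 counts in all 12 libraries. Values of these pairs are uncertain to the extent that reads were split between copies.

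C3 (ENSMUSG00000024164, chr17:57203970-57228136, minus strand) encodes the protein at which all pathways meet. In TGF-β1/M-MDSC sup it had the largest SD of the 9 genes (0.814 FPKM). In TGF-β1/G-MDSC sup its SD was 0.371 FPKM, below that of Masp1 (0.457 FPKM). The 250 bases before its start are shown because it had the largest rise with G-MDSC supernatant of the 7 tested genes, with no capitals because none of the 3 motifs was found there (chr17:57228137-57228386, minus strand, GRCm38.p6).
C3, 250 bases before the start: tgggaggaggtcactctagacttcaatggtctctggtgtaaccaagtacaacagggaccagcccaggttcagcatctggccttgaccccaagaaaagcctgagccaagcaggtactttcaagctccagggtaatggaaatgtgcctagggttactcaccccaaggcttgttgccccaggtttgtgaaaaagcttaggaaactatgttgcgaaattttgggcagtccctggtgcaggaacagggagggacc
C3 stood at 1.89, 1.84 and 1.52 FPKM in untreated MSCs, at 0.445, 0.281 and 0.306 FPKM with TGF-β1, at 1.01, 0.798 and 2.30 FPKM in TGF-β1/M-MDSC sup and at 3.19, 2.94 and 3.67 FPKM in TGF-β1/G-MDSC sup. The TGF-β1 libraries were lowest and the G-MDSC libraries highest, each without overlap with another group, and M-MDSC replicate 3 was above the untreated libraries whereas replicates 1 and 2 were below them. C3 fell by 2.28 with TGF-β1 on the log2 scale (SE 0.356, adjusted p = 0.000521), 4.87-fold lower. It rose 9.30-fold with G-MDSC supernatant (log2 3.22, SE 0.367, adjusted p = 0.000384).

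With M-MDSC supernatant C3 rose 3.90-fold (log2 1.96, SE 0.354, adjusted p = 0.00889), and the call was lost without TGF-β1 replicate 2 (log2 1.84, adjusted p = 0.0515) and with the groups compared fitted alone (adjusted p = 0.0845), where 4 of the genes were called. M-MDSC replicate 3, the library with 14518 hepatocyte counts, had 1027 C3 counts, against 431 and 339 counts in replicates 1 and 2. Without it, C3 still rose, by 1.37 on the log2 scale (adjusted p = 0.00454). The difference between the supernatants, -1.25 for M-MDSC minus G-MDSC on the log2 scale (SE 0.338), had an adjusted p of 0.361, and became -1.85 (adjusted p = 0.00583) without replicate 3. The part of the hepatocyte transcripts in the C3 level of TGF-β1/G-MDSC sup was not tested.

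Cfb (ENSMUSG00000090231, chr17:34856374-34862518, minus strand) encodes factor B, the protease that joins C3b in the alternative pathway convertase. Its level was 0.974, 0.851 and 0.951 FPKM in untreated MSCs, 0.365, 0.431 and 0.421 FPKM with TGF-β1, 0.991, 0.857 and 1.57 FPKM in TGF-β1/M-MDSC sup and 1.12, 1.47 and 1.48 FPKM in TGF-β1/G-MDSC sup. TGF-β1 libraries were lowest without overlap, the M-MDSC libraries overlapped the untreated ones, and the G-MDSC libraries were above the untreated ones. Cfb fell by 1.12 with TGF-β1 on the log2 scale (SE 0.222, adjusted p = 0.00444), the smallest of the 6 falls. It rose by 1.47 with M-MDSC supernatant (SE 0.223, adjusted p = 0.00437), by 1.17 without replicate 3 (adjusted p = 0.00627), and by 1.72 with G-MDSC supernatant (SE 0.224, adjusted p = 0.00149). The mean was 123% of the untreated mean with M-MDSC and 147% with G-MDSC supernatant, where the former was 99.9% without M-MDSC replicate 3, and neither difference from untreated passed the test (adjusted p = 0.373 and 0.0965).

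Masp1 (ENSMUSG00000022887, chr16:23449417-23520815, minus strand) encodes a protease of the lectin pathway and, by alternative splicing, a form without the protease, which a count per gene does not separate. It was measured at 6.95, 7.51 and 6.90 FPKM in untreated MSCs, 6.89, 6.96 and 6.72 FPKM with TGF-β1, 8.31, 9.16 and 8.25 FPKM in TGF-β1/M-MDSC sup and 7.42, 7.56 and 8.27 FPKM in TGF-β1/G-MDSC sup. It was thus second to C1ra in untreated MSCs and the highest of the 9 genes in the other groups by mean FPKM. The log2 difference of Masp1 with TGF-β1 was 0.003 (95% interval -0.13 to 0.14, adjusted p = 0.981). All M-MDSC libraries were above all TGF-β1 and untreated libraries, and Masp1 rose 1.23-fold over TGF-β1 (log2 0.30, SE 0.0596, adjusted p = 0.0159), a call lost without TGF-β1 replicate 1, TGF-β1 replicate 2 or M-MDSC replicate 2 (highest adjusted p = 0.0640). Without M-MDSC replicate 3 it was 0.33 (adjusted p = 0.0274). With G-MDSC supernatant the difference was 0.15 (95% interval 0.02 to 0.28, adjusted p = 0.213).

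Serping1 (ENSMUSG00000023224, chr2:84765387-84775444, minus strand) encodes the C1 inhibitor, a soluble regulator that blocks C1r, C1s and the MASP proteases. Its level was 1.26, 1.42 and 1.61 FPKM in untreated MSCs, 0.176, 0.193 and 0.263 FPKM with TGF-β1, 0.529, 0.371 and 0.812 FPKM in TGF-β1/M-MDSC sup and 0.573, 0.954 and 0.948 FPKM in TGF-β1/G-MDSC sup. Both supernatant groups were above all TGF-β1 and below all untreated libraries. Serping1 fell by 2.67 with TGF-β1 on the log2 scale (SE 0.319, adjusted p = 0.000113) and rose by 1.92 with G-MDSC supernatant (SE 0.313, adjusted p = 0.00635). Its rise of 1.41 with M-MDSC supernatant (SE 0.311, adjusted p = 0.0446) became 1.07 (adjusted p = 0.158) without M-MDSC replicate 3, and with the filter the call was also lost without M-MDSC replicate 1, TGF-β1 replicate 1 or TGF-β1 replicate 2 (highest adjusted p = 0.116). With TGF-β1, the inhibitor thus fell together with C1ra and C1s1, whose products it blocks.

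The remaining regulator and the receptor were near the limit of detection. Cd55 (ENSMUSG00000026399, chr1:130439027-130462744, minus strand) encodes decay-accelerating factor, a membrane protein that breaks up C3 convertases. It had 0 counts in the untreated and TGF-β1 libraries, 4, 0 and 0 counts in TGF-β1/M-MDSC sup and 8, 4 and 12 counts in TGF-β1/G-MDSC sup, and passed in no comparison without the filter (adjusted p = 0.127 for G-MDSC supernatant against untreated). C3ar1 (ENSMUSG00000040552, chr6:122847138-122856161, minus strand) encodes the receptor for C3a. It had 51, 44 and 30 counts in untreated, 0, 16 and 31 counts in TGF-β1, 22, 25 and 21 counts in TGF-β1/M-MDSC sup and 27, 0 and 12 counts in TGF-β1/G-MDSC sup. The untreated and TGF-β1 libraries overlapped, and the log2 difference of C3ar1 was -1.35 (95% interval -3.90 to 1.20, adjusted p = 0.532, no filter), so that a fall of several fold was not detectable at this depth. Of all counts from 1 to 12 in the table, 44.3% were multiples of 4, and the counts of Cd55 were all 0, 4, 8 or 12.

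The 2 supernatants were not told apart by these genes in the fit of all libraries. Among the 7 genes tested, 0 passed between TGF-β1/M-MDSC sup and TGF-β1/G-MDSC sup, beside 0.0999% of all genes higher and 0.025% lower in TGF-β1/M-MDSC sup. C3 and Masp1 had an unadjusted p under 0.05, DESeq2 called 1 gene, C3, lower in TGF-β1/M-MDSC sup (adjusted p = 0.014), and limma on log2(FPKM + 1) called 0. The intervals do not exclude sizeable differences, being -0.71 to 0.32 on the log2 scale for C1s1, -0.72 to 0.22 for Cfb and -1.17 to 0.14 for Serping1. For C1ra the interval was narrow, from -0.18 to 0.19. Without M-MDSC replicate 3 and without the filter, 1 of the 9 genes passed, C3 lower in TGF-β1/M-MDSC sup, beside 0.157% of all genes that were lower.

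Compared with untreated MSCs, C1ra and C1s1 were lower in both supernatant groups. With no filter, 3 of the 9 genes were lower in TGF-β1/M-MDSC sup, C1ra, C1s1 and Serping1 (7.72% of all genes were lower), and Masp1 was higher (7.85% were higher). Without M-MDSC replicate 3, C3 and C4b were lower too, 5 of the 9 (6.53% were lower), and Masp1 was higher (6.59% were higher). In TGF-β1/G-MDSC sup 3 of the 9 were lower, C1ra, C1s1 and C4b (7.65% were lower), and 0 were higher (7.92% were higher). With the filter, which C4b and Serping1 passed through the untreated libraries alone, 4 of 7 genes were lower in TGF-β1/M-MDSC sup, C4b being added (18.9% of all genes were lower), and Masp1 was higher (16.4% were higher). In TGF-β1/G-MDSC sup the filter left 3 of 7 lower (18.4% were lower) and 0 higher (16.4% were higher), although all 7 had an unadjusted p under 0.05 in one direction or the other and DESeq2 called 3 higher. The log2 differences from untreated were -1.93 and -1.93 for C1ra and -2.45 and -2.26 for C1s1 in TGF-β1/M-MDSC sup and TGF-β1/G-MDSC sup, and -1.27 for Serping1 in the former (adjusted p from 3.90e-08 to 0.0130). C3 in TGF-β1/G-MDSC sup was above untreated in 3 of 3 libraries with a log2 difference of 0.93 (95% interval 0.19 to 1.68) and an adjusted p of 0.0531, which DESeq2 gave as 0.0118. Without M-MDSC replicate 3, C3 was below untreated in TGF-β1/M-MDSC sup (log2 -0.92, adjusted p = 0.00762), against -0.32 (adjusted p = 0.512) with it.

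The order of the 4 group means was therefore not the same for every gene. For C1ra, C1s1 and C4b it ran from untreated through the supernatant groups, which did not differ beyond their spread, to TGF-β1, though for C1s1 the last step, from TGF-β1/M-MDSC sup to TGF-β1, did not pass either (adjusted p = 0.245), nor for C4b the first, from untreated to TGF-β1/M-MDSC sup (0.0511). For Serping1 untreated was followed by TGF-β1/G-MDSC sup (adjusted p = 0.131 between these neighbours), TGF-β1/M-MDSC sup (0.809) and TGF-β1 (0.0446). For C3 it ran from TGF-β1/G-MDSC sup through untreated (0.0531) and TGF-β1/M-MDSC sup (0.512) to TGF-β1 (0.00889), and for Cfb from TGF-β1/G-MDSC sup through TGF-β1/M-MDSC sup (0.863) and untreated (0.373) to TGF-β1 (0.00444), where the place of TGF-β1/M-MDSC sup above untreated rested on its replicate 3. Masp1 had TGF-β1/M-MDSC sup first, then TGF-β1/G-MDSC sup (0.740), untreated (0.0704) and TGF-β1 (0.981).

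The other genes of the pathway were taken from a list of 57 complement genes that includes the 9. With no filter 54 of them had counts, and TGF-β1 lowered 16 and raised 1 (7.8% of all genes fell and 6.81% rose). With the filter 19 were tested, of which 13 fell and 1 rose (17.9% and 16.1% of all genes). Of the 19, however, 6 would not have passed without the untreated libraries, where they were highest, namely C1rb, C1rl, C1s1, C4b, Serping1 and Itgb2, and Cfb and Vtn would not have passed without TGF-β1/G-MDSC sup. Of the 11 classical pathway genes listed, 7 fell without the filter, namely C1ra, C1rb, C1s1, C1s2, C4a, C4b and C1rl, a C1r-like protease (log2 -2.80, SE 0.238, adjusted p = 7.62e-06). Among soluble regulators, Clu, whose product clusterin binds the terminal complex, fell by 0.66 (SE 0.0879, adjusted p = 0.000162). Colec12, a scavenger receptor of the collectin family, fell by 0.69 (SE 0.0508, adjusted p = 1.86e-06), Itgb2, the shared chain of complement receptors 3 and 4, by 1.58 (SE 0.261, adjusted p = 0.00133, no filter) and Cd93 by 1.63 (SE 0.146, adjusted p = 8.55e-06). C1qbp, which encodes a largely mitochondrial protein that can bind C1q, rose by 0.14 with the filter (SE 0.0466, adjusted p = 0.0365) but did not pass without it (adjusted p = 0.0868).

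Of the 19 tested, 7 rose over TGF-β1 with M-MDSC supernatant (2.83% of all genes rose), 6 of the 9 genes and Cd93 (log2 0.72, SE 0.144, adjusted p = 0.0159). Masp1, among the 7, had not fallen with TGF-β1. The count was 5 without M-MDSC replicate 3 and 3 without TGF-β1 replicate 2. With G-MDSC supernatant 7 rose (3.1% of all genes rose), 5 of the 9 genes, C1rb and Cd93 (log2 0.98, SE 0.144, adjusted p = 0.0022). With no filter, 7 of the 54 rose with each supernatant (1.56% and 1.84% of all genes rose), although with G-MDSC supernatant C1rb did not pass and Hc, at 0 counts in the libraries without supernatant, did. None of the 19 fell by this test, where 1.95% of all genes fell with M-MDSC and 2.46% with G-MDSC supernatant. In either direction 11 of the 19 had an unadjusted p under 0.05 in each comparison, and DESeq2 and limma also called 0 lower. The log2 differences of C1rl without the filter were -0.20 (95% interval -0.71 to 0.31) with M-MDSC and 0.37 (-0.13 to 0.87) with G-MDSC supernatant, and those with it were, for Clu, -0.04 (-0.23 to 0.16) and 0.01 (-0.19 to 0.20) and, for Colec12, -0.05 (-0.16 to 0.06) and -0.03 (-0.15 to 0.08). For Clu and Colec12 these intervals leave no room for a rise to the untreated level.

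**Figure D3:**
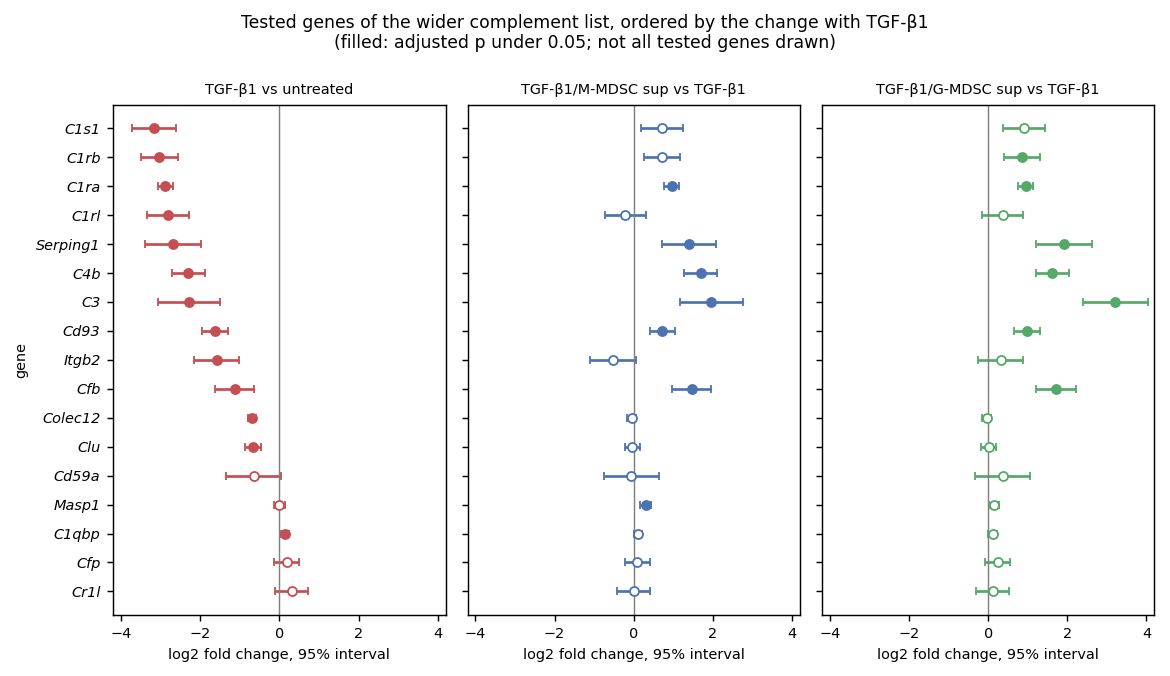
Log2 fold change and its 95% interval (edgeR) for 17 of the 19 tested complement genes in 3 comparisons, ordered by the change with TGF-β1. Filled points had an adjusted p under 0.05 in the fit with the filter. Most points lie left of 0 with TGF-β1, whereas with supernatant C3, C4b, Cfb, Serping1, C1ra and Cd93 lie right of 0 in both panels and Clu and Colec12 lie near it.

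Cfi, singled out after its values were seen, was the 1 listed gene higher with TGF-β1 in the test without the filter. It encodes factor I, the protease that inactivates C3b and C4b. It had 0 counts in the 3 untreated libraries, 79, 79 and 19 counts with TGF-β1, 103, 85 and 103 counts in TGF-β1/M-MDSC sup and 179, 127 and 182 counts in TGF-β1/G-MDSC sup. Its level with TGF-β1 was at least 58.5-fold higher than a floor of 3 counts over the untreated group, and the change passed the test without the filter (adjusted p = 0.000136). The groups with TGF-β1 did not differ by the test (adjusted p = 0.584 for M-MDSC and 0.212 for G-MDSC supernatant against TGF-β1), although all supernatant libraries were above all TGF-β1 libraries.

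Another 18 listed genes had 0 counts in the 6 libraries without supernatant and counts in a supernatant library. They included the C1q genes C1qb and C1qc, the mannose-binding lectin genes Mbl1 and Mbl2 and Hc, C6, C7, C8a, C8b and C9 of the terminal pathway, which builds the membrane pore. Their summed counts were 466, 406 and 573 in TGF-β1/G-MDSC sup and 46, 12 and 365 in TGF-β1/M-MDSC sup. These sums were higher in the libraries with more hepatocyte counts, a relation that was not tested. Single genes differed from the sum. Over the group, C1qb had 53 counts in TGF-β1/M-MDSC sup against 37 in TGF-β1/G-MDSC sup, C1qc 31 against 17 and Csmd1 8 against 0. The others of the 18 had fewer counts in TGF-β1/M-MDSC sup. Vtn, which encodes vitronectin, an inhibitor of pore assembly made by the liver, had 215, 192 and 238 counts in TGF-β1/G-MDSC sup and 0, 8 and 166 in TGF-β1/M-MDSC sup. In these bulk libraries, fewer cells that express a gene and less RNA per cell cannot be told apart.

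Most of the genes induced by interferon that were examined were higher in the same libraries in which C3, C4b, Cfb, C1ra and Serping1 were higher than with TGF-β1. The summed level of 12 such genes was 80.8 to 96.0 FPKM in untreated MSCs, 21.3 to 24.2 FPKM with TGF-β1, 391 to 400 FPKM in TGF-β1/M-MDSC sup and 240 to 258 FPKM in TGF-β1/G-MDSC sup. By this sum the untreated libraries were above the TGF-β1 libraries and the supernatant libraries above both, but single genes differed. Of the 11 that passed the filter, 11 fell with TGF-β1, where 17.9% of all genes fell. Over TGF-β1, 10 rose with each supernatant, where 2.83% of all genes rose with M-MDSC and 3.1% with G-MDSC supernatant. The exception was Irf1 (log2 0.59, adjusted p = 0.186 with M-MDSC and 0.38, adjusted p = 0.430 with G-MDSC supernatant). Against untreated, 9 were higher with M-MDSC and 6 with G-MDSC supernatant, where 16.4% of all genes were higher with each. Rsad2 (log2 -0.52 and -0.99) and Irf1 (-0.61 and -0.82) were lower with both, where 18.9% and 18.4% of all genes were lower. The interferon-induced sum was highest in TGF-β1/M-MDSC sup, whereas C3 was highest in TGF-β1/G-MDSC sup. Whether these genes and the complement genes moved for a shared reason was not tested.

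The genes whose level followed each member most closely over the 12 libraries were found by the Pearson correlation of log2(FPKM + 1), given as a description since the libraries fall into 4 groups. C1s1 was followed by Ptx3, which encodes the C1q-binding pentraxin 3 (r = 0.993), C1rb (r = 0.992) and Aldh1a1 (r = 0.990). C1ra was followed by Prl2c2 (r = 0.995), Hmga2 (r = 0.994) and Id2 (r = 0.994), and C4b by Ly6a, the gene of the MSC surface marker Sca-1 (r = 0.970), Hnrnpd (r = 0.962) and Lamp2 (r = 0.962). The genes nearest to C3 were Cdo1 (r = 0.972), Ak4 (r = 0.937) and Acaa1b (r = 0.923), and those nearest to Cfb were Acy3 (r = 0.938), Socs3 (r = 0.924) and Ifi27 (r = 0.909). Serping1 was closest to Selenop (r = 0.963), Arl6ip1 (r = 0.962) and Tpi1 (r = 0.960), and Masp1 to Vps54 (r = 0.926), Cmtr1 (r = 0.924) and Agrn (r = 0.912).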

How the data were processed

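Poly(A) RNA of 12 MSC libraries, 3 per group, was sequenced in read pairs. Per the study's methods, fastp served for read quality, HISAT2 for alignment (GRCm38) and StringTie for transcripts. The submitters' processing notes give cutadapt 1.9, HISAT2 2.0.4 and StringTie 1.3.4d. The authors deposited 1 table with whole-number counts per gene and library, whose counting tool and strand setting are not given in the sources used here, and the FPKM they calculated from fragments, exon length and mapped reads, where 0.0001 stands for a count of 0 and was read as 0. Columns of the authors' own comparisons and annotations were not used, and 0 per-sample columns lacked a sample. Gene positions of 9 of 9 members equal those of GENCODE vM21.

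Groups came from the sample labels. Library sizes were adjusted with edgeR's TMM factors, and counts were tested with the two-sided quasi-likelihood test of edgeR 4.0.16 in R 4.3.3, in 1 fit of the 4 groups, with Benjamini-Hochberg adjustment over 12016 genes with at least 1 FPKM in at least 3 libraries. A gene was called at an adjusted p under 0.05. For genes that passed the filter only by their highest group, values are from the same fit without the filter. The study's methods name edgeR but no covariate. The script was tested on simulated data. Alternatives were median-ratio scaling, no filter, a filter on 6 libraries, DESeq2 1.42.0, limma 3.58.1 on log2(FPKM + 1) or log2(FPKM + 0.1), counts divided by 4, a replicate block, the groups compared alone, the study's rule (fold above 2 or below 0.5 with unadjusted p under 0.05) and leaving out each replicate. The removal of M-MDSC replicate 3 together with the filter was added after the data were seen.

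The 9 members, the wider list and the marker lists were chosen with earlier results of these data known. Named genes are the 9 members, listed genes called or near copies of a member, the 3 genes most correlated with each tested member, and markers, of which a few are not reported here. Whether replicates came from separate cultures is not stated, so p-values measure the spread between these libraries. With 73977669 to 84565450 counts per library, Cd55 and C3ar1 had too few counts for a fold change of useful precision.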

Additional observations from a re-analysis of the deposited data

How the results depend on the processing

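With TGF-β1 against untreated, 6 members were called under every alternative except the filter on at least 6 libraries. They were 6 of 7 tested, or 6 of 9 without the filter. The filter on at least 6 libraries tested 3 members and called 2, and called 6 of 11 listed genes in place of 14 of 19. That filter also gave 3 members and 4 listed genes with M-MDSC supernatant against TGF-β1, 2 and 3 with G-MDSC supernatant against TGF-β1, and 2 and 1 members with M-MDSC and G-MDSC supernatant against untreated, since fewer genes were tested. Leaving out 1 library gave 3 to 6 members and 3 to 7 listed genes with M-MDSC supernatant against TGF-β1, lowest without TGF-β1 replicate 2, where C1ra, C4b and Cfb were called. It gave 5 members and 6 to 7 listed genes with G-MDSC supernatant against TGF-β1, 0 to 1 of each between supernatants, and 4 to 6 and 2 to 4 members with M-MDSC and G-MDSC supernatant against untreated, the last at 2 without untreated replicate 3 or G-MDSC replicate 3. Between supernatants 1 member and 1 listed gene, C3, were called with DESeq2, with the fold rule and without M-MDSC replicate 3, with or without the filter. The fold rule called 4 members and 5 listed genes with each supernatant against TGF-β1, and 11 listed genes with TGF-β1 against untreated. With either pseudocount, limma called 5 members with M-MDSC supernatant against TGF-β1. Against untreated, the fold rule called 3 members with M-MDSC and 2 with G-MDSC supernatant. With G-MDSC supernatant DESeq2 called 6, limma on log2(FPKM + 1) 5 and the groups compared alone 5 members, against 3. With the M-MDSC supernatant and TGF-β1 libraries fitted alone, C3 had an adjusted p of 0.0845.

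Reversed signs were found for values near 0 that passed no test. Masp1 with TGF-β1 against untreated was -0.015 with the filter on 6 libraries, -0.047 and -0.053 with limma at a pseudocount of 1 and 0.1, and -0.029 to -0.010 without untreated replicate 1 or 3 or TGF-β1 replicate 2 (-0.020 for untreated replicate 3), within a leave-one-out range of -0.029 to 0.039. Between supernatants C1ra was -0.00038 and -0.00077 with limma, between -0.062 and 0.068 with 1 library left out (-0.041, -0.011 and -0.062 without G-MDSC replicate 2, G-MDSC replicate 3 and M-MDSC replicate 3), and -0.059 without the last and without the filter. C4b was -0.10 without M-MDSC replicate 3, with or without the filter (-0.0997), in a range up to 0.18, and C1s1 was 0.045 without M-MDSC replicate 2 and down to -0.52 without M-MDSC replicate 3.

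The replicate numbers did not pair the samples. Residuals had a mean correlation of -0.00025 over 18 pairs with the same number and 0.00014 over 36 pairs with different numbers, and 3 of 12 libraries were closest to their own number. With a replicate block the members called were 6, 6, 5, 0, 5 and 4 in the order TGF-β1, M-MDSC and G-MDSC supernatant against TGF-β1, between supernatants, and M-MDSC and G-MDSC supernatant against untreated. The block added Serping1 in the last of these (-0.78, adjusted p = 0.035).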
